A study of Mus musculus with 14 samples.

Results

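Acetylated and Polycomb-marked chromatin were compared in regulatory T cells whose copper importer gene Slc31a1 had been deleted. The comparison used 5 of the 14 samples of the series, those labelled as knockout chimeras for which a peak list was at hand: 3 lists of H3K27ac and 2 of H3K27me3. Members were taken by genotype and antibody in the labels, not by any measured value, and peaks on autosomes 1 to 19 were used. The labels describe sorted regulatory T cells from chimeras written as Foxp3YFP-Slc31a1△;wt, in which the deletion is tied to the Foxp3-YFP allele, so that all 5 libraries share deletion, sort and cell type. They give no age or sex for these chimeras. The H3K27ac lists 1, 2 and 3 came from chimeras 2, 3 and 4, and the H3K27me3 lists 1 and 2 from chimeras 1 and 2, so chimera 2 alone gave both marks. No label says whether the chimeras shared donors or were pooled, and p-values therefore measure only the spread between these libraries. An IgG library of chimera 2 was not analysed here, and neither were the control chimeras.

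Both marks sit on the same residue, lysine 27 of histone H3. The acetyltransferases p300 and CBP acetylate it at active enhancers and promoters, and the Polycomb repressive complex PRC2, through its subunit EZH2 or EZH1, trimethylates it where genes are held silent. A single histone tail can carry one of these modifications at lysine 27 but not the other. In T cells, long stretches of H3K27ac are known from genes of T cell identity, while H3K27me3 covers regulators of development and of other lineages. CUT&Tag maps either mark by tethering a transposase to an antibody, which cuts out the fragments that carry the mark. The lists held positions in build mm39, and with no gene annotation of that build used here, regions are given by position and no peak was assigned to a gene. For the same reason the labelled cell type was not checked against its markers, and Foxp3 itself lies on the X chromosome.

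The lists were unequal before any comparison. On the autosomes the H3K27ac lists held 27651, 23633 and 20900 peaks over 41.3, 46.3 and 36.9 Mb, and the H3K27me3 lists 36053 and 56634 peaks over 30.4 and 62.0 Mb. Every H3K27ac list began just above a −log10 p of 5 and both H3K27me3 lists just above 9, so the Polycomb lists were held to a stricter threshold. Total depth is unknown, and only the pileup at a summit and its local background could be solved from the deposited fold and −log10 p. The lowest local background (percentile 1 over peaks) was 2.69, 3.17 and 2.53 fragments in the H3K27ac lists and 3.30 and 4.54 in the H3K27me3 lists. The summit of the median peak held 50, 52 and 41 fragments in the H3K27ac lists and 31 and 42 in the H3K27me3 lists. The 90th percentiles of summit pileup were 209, 215 and 144 fragments for H3K27ac and 44 and 82 for H3K27me3. Peak numbers in the names skip 1.59 to 2.29% of each list, and the peaks behind those numbers were not analysed here.

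Polycomb peaks were narrower than acetylated peaks in the lists as deposited. The median width was 899, 1064 and 936 bp in the H3K27ac lists. In the H3K27me3 lists it was 608 and 626 bp. Every H3K27me3 list thus lay below every H3K27ac list, with means of 617 ± 12.7 bp (SD, n = 2) and 966 ± 86.6 bp (SD, n = 3), a difference of -349 bp. The two-sided exact permutation p was 0.1, which is the smallest that 3 against 2 libraries can give, so no test of this kind could pass 0.05 here. Within chimera 2 the difference was -273 bp. With only peaks of a −log10 q of at least 10, it grew to -882 bp. The lowest −log10 q was 3.11 to 3.21 in the H3K27ac lists and 6.94 and 7.30 in the H3K27me3 lists. That cut thus lay further above the start of the H3K27ac lists. With the 20900 strongest peaks of each list the difference shrank to -63.7 bp and the medians of the marks overlapped (two-sided exact permutation p = 0.7).

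The tail of wide peaks differed more than the middle. There were 202, 493 and 360 H3K27ac peaks of at least 10 kb, where they held 7.36, 18.2 and 16.1% of the covered bases. H3K27me3 list 1 had 0 such peaks and list 2 had 90, with 1.69% of its bases. The widest acetylated peaks reached 56014, 74383 and 70686 bp, and the widest Polycomb peaks 9336 and 21666 bp. Peaks under 1 kb in turn held 47.6 and 31.8% of H3K27me3 bases against 14.0 to 19.5% of H3K27ac bases.

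**Figure D1:**
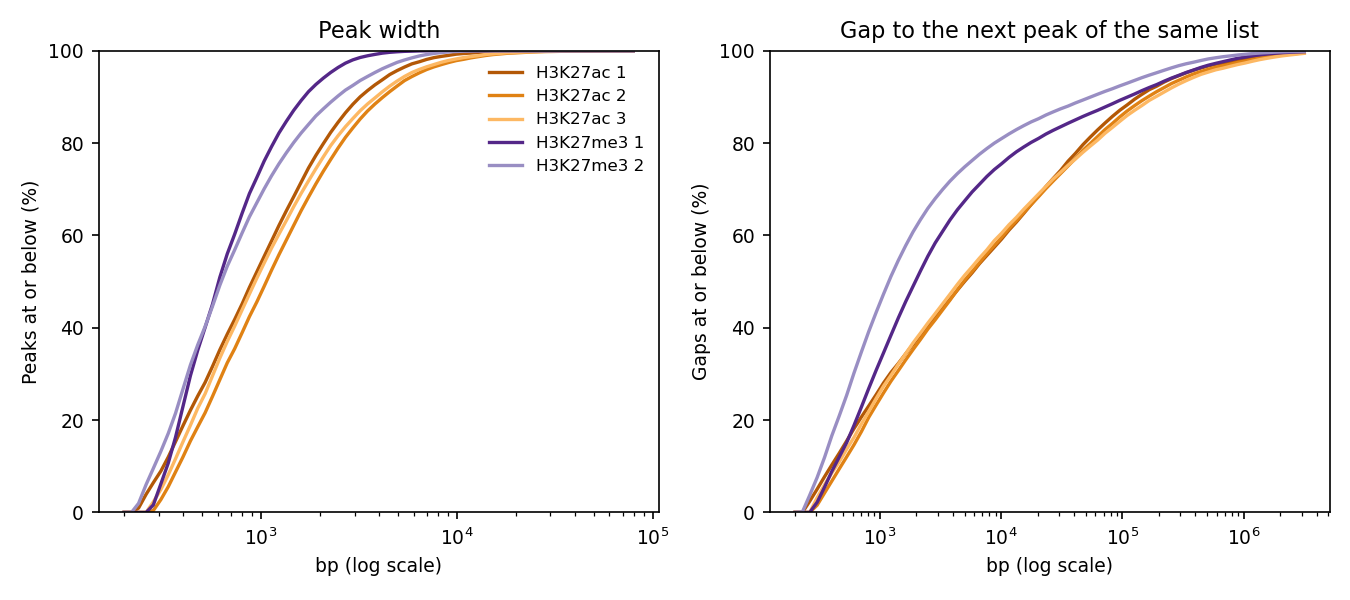
Cumulative share of peaks by width (left) and of gaps between neighbouring peaks by length (right), in bp on a log scale, 1 line per list. The 2 H3K27me3 lines lie left of the 3 H3K27ac lines at their medians in both panels, at 608 and 626 bp against 899 to 1064 bp for width.

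The widest acetylated regions found in all 3 lists were long and nearly filled. On chromosome 12 from 107881650 to 107970509, a region of 88860 bp, the lists had 83841, 87734 and 86928 bases under peaks. Lists 2 and 3 covered it with 3 and 5 peaks and list 1 with 12. The next were on chromosome 14 from 54404093 to 54478629, with 66827, 74383 and 73442 bases, and on chromosome 9 from 32603973 to 32673574, with 65459, 68400 and 68981. Regions on chromosome 8 from 112260243 to 112327519 and chromosome 11 from 11632782 to 11692928 measured 67277 and 60147 bp. All 5 lay between 36.0 and 233 kb from the nearest H3K27me3 peak of either list.

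The widest Polycomb regions were shorter and were filled unequally by the lists. On chromosome 2 from 131387260 to 131409116, the widest at 21857 bp, list 1 covered 8978 bases in 7 peaks and list 2 covered 21569 in 2. On chromosome 4 from 120587941 to 120609606 list 1 had 10081 bases in 8 peaks and list 2 had 21666 in 1 peak. Chromosome 1 from 132125547 to 132143561 was the most alike of the 5, with 14484 and 17467 bases. Across these 5 regions list 1 had 5 to 11 peaks and list 2 had 1 to 3.

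Polycomb peaks lay closer together along the chromosomes in the lists as deposited. The median gap from a peak to the next of its list was 4991, 4898 and 4542 bp for H3K27ac and 1962 and 1184 bp for H3K27me3. The means were 4810 ± 237 bp (SD, n = 3) and 1573 ± 550 bp (SD, n = 2), with no overlap and an exact permutation p of 0.1, two-sided. A neighbour of the same list within 5 kb was found for 68.3, 68.5 and 69.6% of H3K27ac peaks and for 87.0 and 90.9% of H3K27me3 peaks, a difference of 20.2 percentage points (exact permutation p = 0.1, two-sided). Within chimera 2, H3K27me3 minus H3K27ac was -3806.5 bp for the gap and 22.6 points for the share with a neighbour. With the 20900 strongest peaks of each list the share differed by 12.3 points, and when these were also joined within 3 kb the gap turned to 1469 bp longer for H3K27me3.

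Joining peaks that lay within 3 kb of each other turned the order of widths. It left 15755, 13601 and 11759 acetylated domains of 1.74 to 1.78 peaks each, and 14699 and 17751 Polycomb domains of 2.45 and 3.19 peaks. Median domain widths were 1479, 1660 and 1500 bp for H3K27ac and 1913 and 2649 bp for H3K27me3, a difference of 735 bp in the other direction (exact permutation p = 0.1, two-sided). Of the bases inside these domains, 77.6, 81.0 and 79.3% were under peaks for H3K27ac but 56.2 and 63.2% for H3K27me3. The longest joined domains were still acetylated in lists 2 and 3, at 215560 and 213868 bp, against 131853 bp in H3K27me3 list 2, 89317 bp in H3K27ac list 1 and 55604 bp in H3K27me3 list 1. With all lists cut to their 20900 strongest peaks the medians overlapped (1208, 1218 and 936 bp against 786 and 1328 bp, exact permutation p = 0.7, two-sided), and the difference of means was -63.7 bp.

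How unevenly the marks filled the genome was measured by the most covered windows. The most covered 10% of 100 kb windows held 79.4, 84.4 and 87.9% of H3K27ac bases and 77.8 and 73.2% of H3K27me3 bases. Means were 83.9 ± 4.27% (SD, n = 3) and 75.5 ± 3.23% (SD, n = 2), with an exact permutation p of 0.2, two-sided. With the 20900 strongest peaks of each list the difference was -4.28 points and the groups overlapped, at 80.5, 85.1 and 87.9% against 81.7 and 78.7%. By number of peaks the order was the other way. The variance of the number of peaks per 1 Mb window was 19.4, 18.2 and 18.3 times its mean for H3K27ac and 26.3 and 37.9 times for H3K27me3, a ratio that also grows with the number of peaks. The fullest 1 Mb window held 109 to 121 acetylated peaks, and 138 and 210 Polycomb peaks.

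The marks shared almost no bases. H3K27ac lists 2 and 3 had 0 overlapping peaks with H3K27me3 list 1, and list 1 had 3. With H3K27me3 list 2, 19, 11 and 6 peaks of the H3K27ac lists 1 to 3 overlapped. The library pair of chimera 2, H3K27ac list 1 and H3K27me3 list 2, shared 8308 bases, the most of the 6 pairs. Merging the lists of each mark gave 52.9 Mb of H3K27ac and 66.7 Mb of H3K27me3, which crossed at 23 places with 10297 bases in all, 0.0195% and 0.0154% of the marks.

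None of the 23 crossings was seen in every list of both marks. The longest lay on chromosome 18 from 55119889 to 55121368, where 1480 bases were shared between the marks and reached by peaks of all 3 H3K27ac lists and of 1 H3K27me3 list. On chromosome 13 from 95660782 to 95661853, 1072 bases showed the same pattern, as did 3 shorter places on chromosomes 5 and 16. A further 3 places were in both H3K27me3 lists but in 1 H3K27ac list, the longest on chromosome 5 from 113285670 to 113286323 with 654 bases. The median crossing measured 361 bp, and 11 of the 23 rested on 1 list of each mark.

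In every list the upper quartile of the distance to the other mark was 165 kb or less, and very few peaks came within 1 kb. The median distance from an H3K27ac peak to the nearest H3K27me3 peak of either list was 77.0, 80.0 and 84.1 kb. From an H3K27me3 peak to the nearest H3K27ac peak of any list it was 64.3 and 57.2 kb. The groups did not overlap, with means of 80.4 ± 3.61 kb (SD, n = 3) and 60.7 ± 5.02 kb (SD, n = 2). Reassigning these values to groups of 3 and 2 gave a two-sided permutation p of 0.1. The distances were not recomputed under each assignment, and lists of a mark shared 1 target, so this p is not exact. The targets were also unlike: 58602 merged H3K27me3 regions for H3K27ac peaks, and 28934 merged H3K27ac regions for H3K27me3 peaks. The difference of means moved with the libraries used, from -7.63 kb without H3K27ac list 1 to -49.1 kb without H3K27me3 list 2. With all lists it was -19.6 kb.

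Against single lists the distance followed the length of the list searched. From the 3 H3K27ac lists the medians were 109, 114 and 118 kb to the shorter H3K27me3 list 1, and 77.7, 80.6 and 84.8 kb to list 2. From H3K27me3 list 1 to H3K27ac lists 1, 2 and 3, in falling order of peak number, the medians were 65.8, 80.1 and 93.8 kb. From H3K27me3 list 2 they were 58.5, 71.2 and 84.98 kb, the last beside 84.76 kb from H3K27ac list 3 to it. Against single lists the values of the 2 marks thus overlapped. Between 32.1 and 35.6% of acetylated peaks had a Polycomb peak within 50 kb, and 39.8 and 44.8% of Polycomb peaks had an acetylated one. Only 60, 29 and 18 acetylated peaks came within 1 kb of the other mark, and 4 and 68 Polycomb peaks. At the far end, 0.293 to 0.345% of acetylated peaks and 0.974 and 0.671% of Polycomb peaks had none within 1 Mb.

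**Figure D2:**
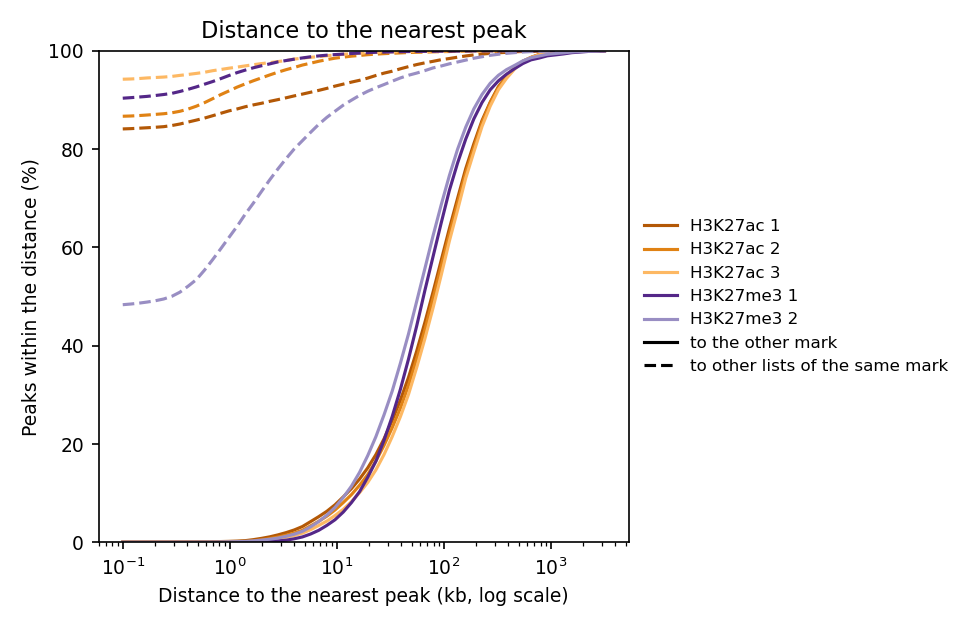
Share of peaks with another peak within a distance, in kb on a log scale: solid lines to the nearest peak of the other mark, dashed lines to the nearest peak in the other lists of the same mark. The solid lines stay near 0 below 1 kb and pass the middle between 57.2 and 84.1 kb, while the dashed lines start high because same-mark peaks overlap.

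Peaks near the other mark were not uniformly weaker. Acetylated peaks within 10 kb of H3K27me3 had median widths of 876, 957 and 777 bp, and those 100 to 500 kb away 880, 1091 and 962 bp. The near peaks were narrower in each list, by little in list 1. Their median −log10 p was 21.5, 18.3 and 12.8 against 17.2, 16.9 and 13.9 for the far ones, higher in lists 1 and 2 and lower in list 3. Polycomb peaks within 10 kb of H3K27ac had median widths of 565 and 628 bp, against 619 and 622 bp for those 100 to 500 kb away. Those over 500 kb from any acetylated peak were the widest bin in both lists, at 658 and 768 bp.

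Recurrence with distance went different ways in different libraries. Of H3K27ac list 1 peaks within 10 kb of H3K27me3, 48.5% were found in both other H3K27ac lists, against 73.0% of those 100 to 500 kb away. In list 3 the shares were 90.9 and 80.0%, and in list 2 they were 64.4 and 64.5%. For H3K27me3 list 2 the shares found in list 1 were 35.9 and 51.1%, and for list 1 found in list 2 they were 90.1 and 89.1%. The 2 lists with lower recurrence near the other mark, H3K27ac 1 and H3K27me3 2, were the longest of their mark and both from chimera 2, and the part of list length in this was not tested.

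Replicates of a mark overlapped far more than the marks did. The Jaccard index, the shared bases divided by the bases in either list, was 0.705, 0.671 and 0.722 for the 3 pairs of H3K27ac lists, a mean of 0.699 ± 0.0258 (SD over 3 pairs that share libraries). For the pair of H3K27me3 lists it was 0.387. Those 2 lists covered 30.4 and 62.0 Mb, while the H3K27ac lists covered 36.9 to 46.3 Mb. Unequal cover caps the index, so 0.387 and 0.699 are not on the same scale. Between marks the index ran from 0 to 8.05e-05 over 6 pairs. The mean was 0.621 within and 2.87e-05 between marks, and the one-sided exact permutation p of 0.1 is the smallest possible.

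**Figure D3:**
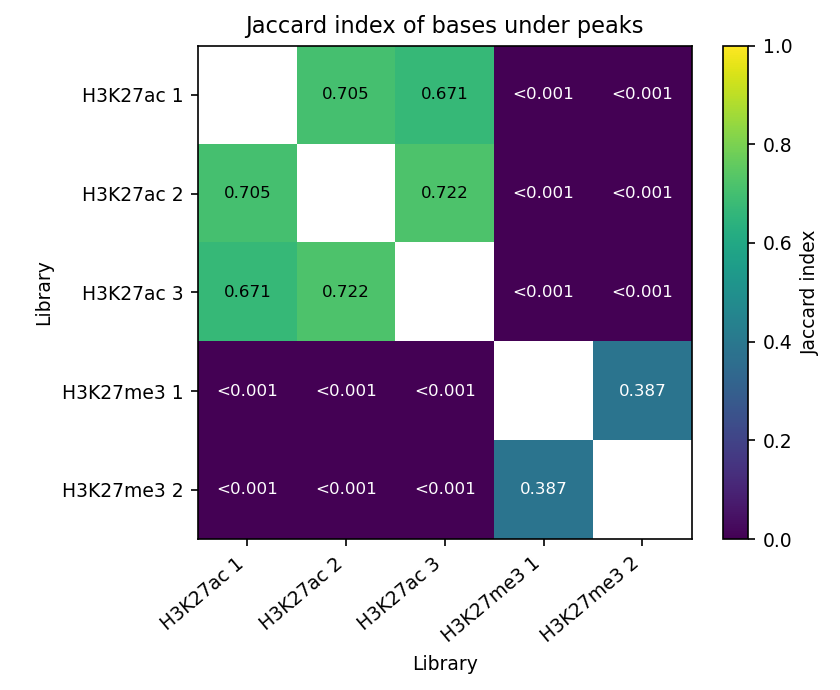
Jaccard index of bases under peaks for each pair of the 5 knockout lists, from 0 (no shared base) to 1 (the same bases). The H3K27ac pairs read 0.671 to 0.722 and the H3K27me3 pair 0.387, and each pair of different marks is below 0.001. The H3K27me3 lists cover 30.4 and 62.0 Mb, and such a difference caps their index.

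The Polycomb replicates overlapped unequally. Of H3K27me3 list 1 peaks, 89.8% overlapped list 2, while 47.8% of list 2 peaks overlapped list 1. By bases, 84.7% of list 1 lay under list 2 and 41.6% of list 2 under list 1. With all lists cut to their 20900 strongest peaks, the Jaccard index was 0.356 for H3K27me3 and 0.681 to 0.734 for H3K27ac. At that cut the 2 H3K27me3 lists still differed in median width, at 786 and 1328 bp. Joining peaks within 3 kb raised the H3K27me3 index to 0.495, and the H3K27ac pairs then stood at 0.706 to 0.7495. Of H3K27me3 list 2 peaks, 82.2% had a list 1 peak within 5 kb.

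Strong and wide peaks recurred in both marks. Among the top 25% of H3K27ac peaks by −log10 p in their list, 96.8 to 99.98% were found in each other H3K27ac list, against 29.9 to 75.6% of the weakest 25%. Of H3K27me3 list 1 peaks, 98.4% of the strongest 25% and 80.7% of the weakest 25% were in list 2. In the reverse direction the shares were 81.6 and 21.7%. Peaks of 2 kb or wider were found again in at least 99.25% of cases for each H3K27ac list and H3K27me3 list 1, and in 90.3% for H3K27me3 list 2.

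Merged regions touched by every list held most of the merged bases of each mark. Of 28934 H3K27ac regions, 14771 (51.1%) were in all 3 lists and held 83.5% of the merged bases, with a median width of 1947 bp. The 8965 regions seen in 1 list held 8.03% of the bases and had a median of 401 bp. Of 58602 H3K27me3 regions, 25344 (43.2%) were in both lists and held 70.7% of the bases, with a median of 1244 bp. The 33258 seen in 1 list had a median of 436 bp. Each merged region counted with all its bases, including those that only 1 list covered. The bases shared by lists were fewer, 25.8 of 66.7 Mb for the 2 H3K27me3 lists. Pairs of H3K27ac lists shared 31.4 to 36.2 of 52.9 Mb. Merging peaks of several lists also widens a region by construction. The shares rest on 3 lists for one mark and 2 for the other, and were not tested against each other.

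Windows of 100 kb were classed by the marks they held. Of 24596 windows, 22.6% held a peak of every H3K27ac list and 25.8% a peak of both H3K27me3 lists. A window was counted as holding a mark when every list of that mark had a peak base in it, and as lacking it when no list had. On that rule 2976 windows (12.1%) held H3K27ac only, 3602 (14.6%) H3K27me3 only and 1908 (7.76%) both marks. Windows with H3K27ac in every list held H3K27me3 in both lists in 34.3% of cases, against 23.3% of all other windows. Neither mark was seen in 12937 windows (52.6%). In the other 3173 (12.9%) at least 1 mark was in some of its lists only.

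By bases, windows with a single mark held the larger part of each mark. Windows with H3K27ac only held 68.35% of all acetylated bases, and those with H3K27me3 only held 57.6% of Polycomb bases. Windows with both held 19.9 and 27.6%. In the 3 H3K27ac lists the median window had 5045, 5209 and 3723 acetylated bases where it held that mark only, and 2878, 2650 and 1807 where it held both. In the H3K27me3 lists it had 3313 and 5829 Polycomb bases alone, and 2415 and 6328 beside H3K27ac. Acetylated cover was thus lower in shared windows in each of 3 lists, and Polycomb cover was lower in list 1 and higher in list 2. Peaks per window followed, at 5.68, 5.05 and 4.70 acetylated peaks alone and 3.11, 2.71 and 2.43 in shared windows.

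**Figure D4:**
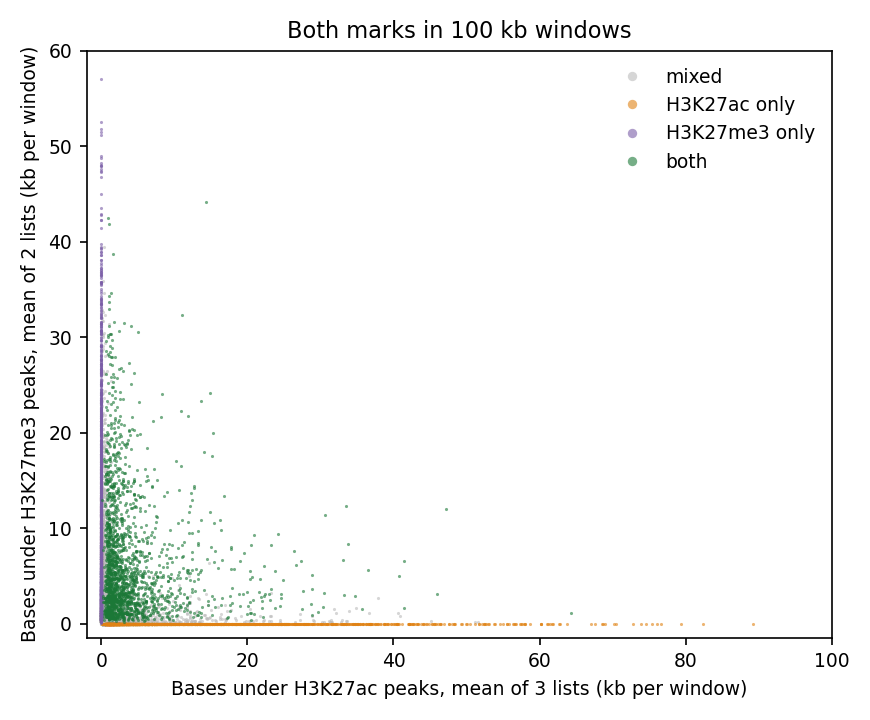
Bases under H3K27ac peaks (mean of 3 lists) against bases under H3K27me3 peaks (mean of 2 lists) in each 100 kb window with a peak, in kb, coloured by class. Windows of a single mark lie on the axes, up to 89.2 kb of H3K27ac and 57.0 kb of H3K27me3, and the 1908 windows with both lie between the axes. The 3173 mixed windows, with at least 1 mark in some of its lists only, lie on the axes or between them. Median cover was 4715 H3K27ac or 4539 H3K27me3 bases in windows of a single mark. In windows with both it was 2452 H3K27ac and 4637 H3K27me3 bases.

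Among the windows with H3K27ac only, which lack H3K27me3 by their definition, the fullest 10 had most of their length under peaks in each list. Chromosome 19 from 10700001 to 10800000 had 79704, 95464 and 92441 acetylated bases. Chromosome 4 from 32300001 to 32400000 had 62575, 94919 and 89506, and chromosome 14 from 54400001 to 54500000 had 70738, 87080 and 80484. A second window on chromosome 19, from 11400001 to 11500000, came next with a mean of 76662 bases. The others of the fullest 10 lay on chromosomes 3, 12, 5, 7 and 2, the last with a pair, and had means of 70424 to 76132 bases. In all 10, list 1 had the fewest bases.

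Among the windows with H3K27me3 only, the fullest 10 were covered less, and list 2 had more bases than list 1 in each. Chromosome 8 from 121600001 to 121700000 had 38488 and 75575 bases. Chromosome 1 from 74900001 to 75000000 had 37416 and 67697, and chromosome 17 from 85900001 to 86000000 had 29357 and 74288. The window on chromosome 2 from 151900001 to 152000000, with 41324 and 61610 bases, holds the region from 151920337 to 151940080, the third widest of the mark. The other 6 lay on chromosomes 2, 15, 13, 5, 7 and 1, with means of 47889 to 51162 bases.

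Of the windows with both marks, 971 had at least 1000 bases under peaks in every list. The fullest by the lesser mark lay on chromosome 7 from 30100001 to 30200000, with 11462, 18475 and 16005 acetylated and 9515 and 30453 Polycomb bases. Chromosome 11 from 58100001 to 58200000 had 14579, 16392 and 14598 against 10834 and 24188, and chromosome 14 from 56500001 to 56600000 had 14066, 17754 and 12766 against 17893 and 30303. On chromosome 11 from 59100001 to 59200000, Polycomb cover was higher, at 31662 and 56713 bases beside 14294, 16056 and 12496 acetylated ones. Over all 1908 windows with both marks, the closest pair of peaks of the 2 marks was a median of 11.9 kb apart, with quartiles of 5.29 and 25.2 kb. The marks touched in 9 of the windows. In 986 (51.7%) each mark made up at least 25% of the marked bases.

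Runs of neighbouring windows of 1 class reached 1 Mb. The longest with H3K27ac only, 10 windows each, lay on chromosome 5 from 64100001 to 65100000 and from 122400001 to 123400000, with 83.6, 109 and 95.1 kb and with 98.2, 129.9 and 101 kb under peaks. On chromosome 17 from 52000001 to 52900000 a run of 9 windows was denser, at 118, 218 and 193 kb. The longest with H3K27me3 only lay on chromosome 9 from 42800001 to 43800000, with 108 and 187 kb, and on chromosome 5 from 119700001 to 120600000, with 111 and 199 kb. Windows with both marks ran for 0.7 Mb on chromosome 7 from 29800001 to 30500000, with 47.7, 62.3 and 52.7 kb of H3K27ac and 22.2 and 70.7 kb of H3K27me3. The longest stretch with neither was 11.8 Mb, on chromosome 15 from 13200001 to 25000000. No peak number was skipped there in any list.

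In each class, neighbours of the same class were more common than that class was over all windows. Of the windows next to one with H3K27ac only, 40.8% were of that class and 10.4% held H3K27me3 only, against 12.1% and 14.6% of all windows. Next to H3K27me3 only, 29.8% were of that class and 8.63% held H3K27ac only. Windows with both marks bordered on each, with 20.4% acetylated only, 25.4% Polycomb only and 20.8% shared neighbours, against 12.1, 14.6 and 7.76% of all windows. Their neighbours were thus more often Polycomb only than shared. They bordered on an empty window in 11.4% of cases, and empty windows on another empty one in 80.5%, against 52.6% of all windows.

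How often the marks shared a window depended on its size. At 10 kb, 1.14% of windows with H3K27ac in every list also held H3K27me3 in both lists, against 7.18% of all other windows. At 50 kb the shares were 16.4 and 17.0%. At 100 kb the order had turned, with 34.3% against 23.3%. The difference widened to 57.1 and 29.2% at 200 kb, and at 1 Mb 92.2% of acetylated windows and 44.5% of the others held H3K27me3. The other windows include all that held neither mark, 12937 of 24596 at 100 kb. What part these empty windows had in the turn was not tested. In 9 further settings (lists of equal length, a stricter threshold, each list left out, chimera 2 only, and windows with skipped peak numbers left out), acetylated windows had the lower share in each at 10 kb and the higher share in each at 100 kb and above. At 50 kb they were higher in 3 of the 9: without H3K27ac list 3 (18.2 against 16.7%), without H3K27me3 list 1 (25.4 against 21.6%) and in chimera 2 only (29.8 against 20.3%). Windows are not independent of each other, and no test was made across them.

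**Figure D5:**
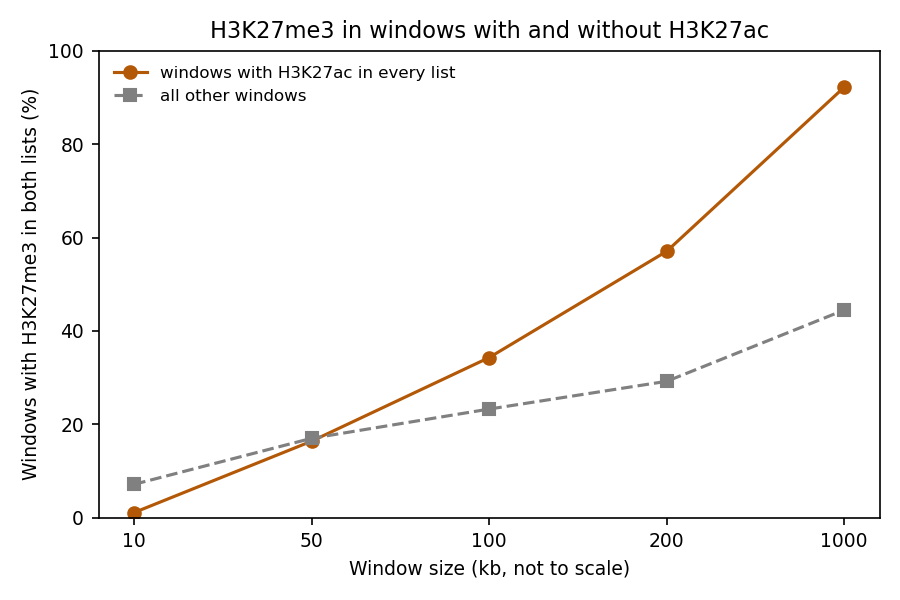
Share of windows with H3K27me3 in both lists, among windows with H3K27ac in every list (circles) and all other windows (squares), for window sizes of 10, 50, 100, 200 and 1000 kb. The circles lie below the squares at 10 kb (1.14 and 7.18%) and above them at 1000 kb (92.2 and 44.5%). Windows with neither mark count among the other windows.

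Cover per window was alike in libraries of the same mark. Over the windows with a peak in either list, the Spearman correlation of bases was 0.950, 0.923 and 0.957 for the H3K27ac pairs (6506 to 7245 windows) and 0.892 for the H3K27me3 pair (8015 windows). Between marks the sign depended on the windows used. It lay between -0.614 and -0.462 over the 6 pairs in windows with a peak in either list, a choice that by itself pushes the value below 0, since a window without one mark must then hold the other. Over all 24596 windows it was 0.0784 to 0.201, and over the 1908 windows with both marks the mean bases gave -0.109. These are descriptions across windows of the same libraries.

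Chromosomes differed in the balance of the marks. Chromosome 11 had the highest share of windows with H3K27ac, 33.7%, and with H3K27me3, 33.3%, and also the most with both, 12.7%. Chromosome 3 had the lowest share with H3K27ac, 17.1%, beside 22.1% with H3K27me3. Chromosome 18 leaned most to Polycomb, with 9.38% of windows acetylated only and 16.3% Polycomb only. Chromosome 17 leaned the other way, with 15.2 and 12.4%. Across the 19 chromosomes, the mean covered shares of H3K27ac and H3K27me3 gave a Spearman value of 0.595, a description over chromosomes of the same libraries.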

How the data were processed

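Per the labels' protocols, sorted cells of each sample went through a CUT&Tag kit with antibodies to H3K27ac, H3K27me3 or IgG. Per the submitters' processing notes the tools were Bowtie2 2.2.4, deepTools 3.5.1, MACS2, ChIPseeker 1.30.3 and HOMER 4.11, with build mm39. The sources used here do not give settings, the background library or the handling of duplicates. Each deposited list belongs to 1 library. The authors deposited for each peak a fold enrichment as a ratio, p and q values as −log10, and a score that equals 10 times the −log10 p, rounded down, for nearly every peak. These served only to rank or filter peaks within a list and to read back pileups, which came within 0.05 of a whole number for at least 99.6% of peaks in each list.

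Interval measures were computed in Python 3.11.15 with NumPy 2.4.6, SciPy 1.17.1 and pandas 2.3.3, tested on simulated data. Overlaps counted from 1 bp, and a distance is the number of bases between 2 peaks. Differences between marks used 1 value per library and an exact permutation test over the 10 assignments of 5 libraries to 3 and 2. For the distance to the other mark, values were reassigned without being recomputed, so that p is not exact. Windows ran from the chromosome start to the last peak of any list. Named windows were the 10 per class with the most bases of their mark (for both marks, of the lesser), named regions the 5 widest in every list, and named runs were taken from the 5 longest per class. Crossings of the marks and single chromosomes were singled out after their values were seen. Members and rules were chosen with earlier results of these data known. No genome or annotation of mm39 was used here, so the planned results on genes, gene lists, marker genes and GC content were not run and no sequence is shown. Interval precision rests on depth, which a list does not state.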

Additional observations from a re-analysis of the deposited data

How the results depend on the processing

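The order of peak widths turned when peaks within 3 kb were joined (735 bp wider for H3K27me3), also together with a −log10 q of at least 10 (280 bp) or with lists of equal length (560 bp). In that last setting the gap turned too, to 1469 bp longer for H3K27me3. The combined settings, windows of 10 kb and 1 Mb, and leaving out gaps or windows at skipped peak numbers were chosen after seeing the data. The other 4 tested results kept the sign of their difference under every alternative run, with 12 or 13 each, but the groups did not stay apart in every run. With lists of equal length they overlapped for the share in the fullest windows. For the distance to the other mark they overlapped when stricter and joined, at 67.7, 72.1 and 77.8 kb for H3K27ac against 72.3 and 66.25 kb for H3K27me3. With the replicate number as a block, which pairs different chimeras, the width difference was -364.5 bp, and no direction changed; its exact p cannot go below 0.5. With lists of equal length the width difference was -63.7 bp, the share with a neighbour 12.3 points and the share in the fullest windows -4.28 points; at a −log10 q of at least 10 the gap difference was -9781 bp and the share with a neighbour 30.7 points. The distance to the other mark differed by -39.8 kb with equal lists and by -3.23 kb when stricter and joined. Without 1 library, width differed by -383 to -300.5 bp and the gap by -3626 to -2848 bp.

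Counts of windows with H3K27ac only, H3K27me3 only and both were 13425, 16424 and 157 at 10 kb, 5495, 6262 and 1215 at 50 kb and 1207, 1805 and 2292 at 200 kb. At 1 Mb they were 61, 268 and 1453. Windows with both numbered 971 with at least 1000 bases per list, 3637 with a peak in at least 1 list and 3542 in chimera 2 alone. Window size and eased or stricter rules set these counts by construction. Results on genes and GC content were not run. The cause of the turned orders was not tested.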
